A study of Homo sapiens with 4 samples.

Results

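Sense intronic transcripts are long noncoding RNAs annotated inside an intron of a protein-coding gene and on the same strand as that gene. All rows whose transcript type was sense_intronic were taken, which gave 253 transcripts of 248 genes among the 38510 transcripts of 13036 genes listed in every library. Each transcript was set beside its host, the smallest protein-coding gene whose listed span contained it on the same strand, with the FPKM of the host's listed transcripts summed. FPKM counts sequenced fragments scaled to the length of the transcript and to the fragments mapped in the library. A host was found for 217 transcripts, in 188 host genes. Of the other 36 transcripts, 25 lay within a coding gene of the annotation but not within its listed transcripts, and 11 lay within none.

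The data came from HCCLM3, a human hepatoma cell line, in which lentiviral delivery of a short hairpin RNA had stably introduced a control hairpin (shCtrl, 2 libraries) or one directed at KIAA1429 (shKIAA1429, 2 libraries). KIAA1429, now called VIRMA, encodes a scaffold of the methyltransferase complex for N6-methyladenosine (m6A), a mark on adenosines of RNA. Each group carried 1 hairpin label, and nothing in the labels says that replicates were separate infections, so p-values measure only the spread between these samples. VIRMA summed to 9.37 and 14.1 FPKM in the shCtrl libraries and to 6.89 and 8.52 in the shKIAA1429 libraries, which did not overlap (log2 fold change of -0.53 with a standard error of 0.24; limma, adjusted p = 0.91). Read depth is unknown, since the values are normalized. Of 12 hepatocyte marker genes, 9 were not listed, among them ALB, AFP and APOB. SERPINA1 measured 4.42 and 3.34 FPKM in shCtrl and 5.63 and 4.70 FPKM in shKIAA1429. The epithelial keratins KRT8 and KRT18 stood at 971 FPKM or above in every library. Of 7 markers of blood, endothelial and stromal cells only CD68 and COL1A1 were listed, with summed levels of 50.6 to 55.9 FPKM in shCtrl and 50.8 to 56.3 FPKM in shKIAA1429. Most of this sum was CD68, at 52.3 and 45.6 FPKM in shCtrl and 51.4 and 44.1 FPKM in shKIAA1429.

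An intron is copied into the pre-mRNA with its host, is cut out as a lariat by the spliceosome, is opened by the debranching enzyme DBR1 and is then normally degraded in the nucleus by exonucleases, among them the RNA exosome. Some introns hold RNAs that outlast this decay, such as small nucleolar and Cajal body RNAs, which are trimmed out of the lariat, or noncoding RNAs with a promoter of their own. The kit used for these libraries does not mark strand by default and no strand setting was given, so reads from the pre-mRNA, from a separate sense transcript and from the opposite strand cannot be told apart here.

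The sequences below show intronic RNAs that the results turned on. They were read from the GENCODE 44 annotation on GRCh37, and the single-exon transcripts shown here equal the genome at the positions given. The most abundant transcript, AC006064.5 (248 bases), lay in intron 4 of 31 of NCAPD2, a condensin subunit gene, and within the RefSeq gene SCARNA10, a small Cajal body RNA also called U85 that guides modification of U5 snRNA. AC131009.3 (chr12:132419187-132419473, plus strand, 287 bases) lay in intron 3 of 5 of PUS1, which encodes a pseudouridine synthase, and AC104695.3 (chr2:28619682-28619977, plus strand, 296 bases) lay in intron 1 of 3 of FOSL2, which encodes an AP-1 transcription factor. The short transcripts in PUS1 and FOSL2 are printed because both were among the 8 with the highest level. Capitals mark GGAC, the core of the favored m6A sequence, searched on the transcript's own strand.
AC131009.3: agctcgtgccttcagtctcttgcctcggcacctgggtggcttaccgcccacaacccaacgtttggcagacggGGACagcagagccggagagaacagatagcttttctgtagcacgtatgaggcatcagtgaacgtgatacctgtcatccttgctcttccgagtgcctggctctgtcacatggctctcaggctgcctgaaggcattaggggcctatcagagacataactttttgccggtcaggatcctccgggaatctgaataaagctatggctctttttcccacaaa
AC104695.3: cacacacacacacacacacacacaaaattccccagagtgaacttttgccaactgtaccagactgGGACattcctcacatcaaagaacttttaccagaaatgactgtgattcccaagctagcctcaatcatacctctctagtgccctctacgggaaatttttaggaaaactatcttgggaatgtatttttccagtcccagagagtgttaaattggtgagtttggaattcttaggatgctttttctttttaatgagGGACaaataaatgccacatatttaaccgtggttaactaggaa
AC051619.8 (chr15:45492523-45492830, minus strand, 308 bases, the leading 300 printed) is shown because it had the largest difference between groups. In capitals are the 72 bases at the positions of TRH-GTG1-8, a histidine tRNA gene in RefSeq.
AC051619.8: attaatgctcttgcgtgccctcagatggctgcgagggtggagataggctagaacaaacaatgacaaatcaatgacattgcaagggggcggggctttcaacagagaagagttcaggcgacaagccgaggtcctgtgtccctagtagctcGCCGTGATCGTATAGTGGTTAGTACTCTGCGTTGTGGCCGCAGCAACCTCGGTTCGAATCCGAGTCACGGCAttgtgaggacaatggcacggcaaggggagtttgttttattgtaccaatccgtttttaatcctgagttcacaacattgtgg
It carried 1 GGAC, beyond the 3′ end of the tRNA gene. It lay within the annotated gene SHF, whose listed transcripts did not reach it, so it had no host.

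The transcripts were short and often unspliced. Of the 253, 252 matched a transcript of GENCODE 44, 242 of them with the same start and end. In that release 232 of the 252 belonged to lncRNA genes and 14 to protein-coding genes, and only 6 kept a sense intronic gene type. Exons and sequences were used only for these 242 and, for comparison, for the 25010 of all listed transcripts whose ends were likewise unchanged. The median spliced length was 569 bases, from 151 to 4890, beside 1091 bases for the 25010. A single exon made up 128 of the 242 (52.9%), while 99 had 2 exons and 15 had more. The share was 2.43% of the 25010 and, among them, 26.0% of lincRNAs and 44.4% of transcripts typed sense_overlapping. It was 99.2% of TEC transcripts, a class of annotated loci that await experimental evidence, so a single exon was not particular to this class. The median GC content of the 242 was 44.6%, against 51.8% for the 25010, 48.8% for lincRNAs, 48.3% for TEC and 43.6% for sense_overlapping transcripts. By the annotation, 24 shared bases with exons of other sense-strand transcripts and 14 shared bases with exons on the opposite strand, and reads over those bases cannot be assigned to one of them here.

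The m6A core GGAC was present in 188 of the 242 (77.7%), against 96.0% of the 25010, which are longer. Per length the transcripts held 2.65 GGAC per kb, against 4.26 per kb in the 25010, 3.50 in lincRNAs and 3.47 in TEC transcripts. The sense_overlapping transcripts held 2.64 per kb, so the low density was not particular to this class. In windows of equal length, the 300 bases from the 5′ end, 55.1% of the 225 transcripts long enough held GGAC, and so did 76.8% of 24756 listed transcripts. The share was 57.7% of 26 sense_overlapping and 61.4% of 114 TEC transcripts. Among those without GGAC were AC107308.1 in HMGA2, AC037198.2 in THBS1, AC025857.2 in CTSB, AC104393.1 in SFRP1, AC124067.2 and ANKRD10-IT1. These are counts of letters, and no m6A measurement was used.

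Within their hosts the transcripts lay nearer the 5′ end. The median position of their midpoints was 37.9% of the host's span from its 5′ end, with 39 of 217 in the 10% of the span nearest the 5′ end and 15 in the 10% nearest the 3′ end. In the host transcript with the highest level among those around each member, 212 lay in 1 intron, and 82 of these (38.7%) were in intron 1. The first introns of these 185 host transcripts held 28.9% of their intronic bases. The introns were long, with a median of 15905 bases. Transcripts in intron 1 had a median level of 8.22% of their host, and the 130 in later introns had 5.53%. Of the remaining 5, AL645608.6 in AGRN and AL049795.2 in KPNA6 touched an exon, AL356299.2 in AHCY had exons in several introns, and AL162386.2 in MPDZ and AC026271.4 in ZNF286B were spanned by a host transcript with no exon model in the annotation.

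**Figure D1:**
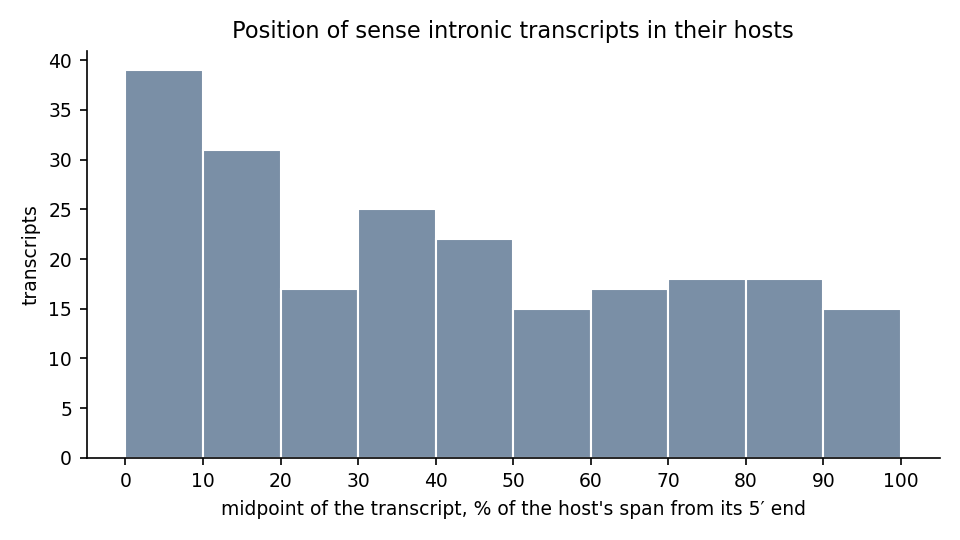
Histogram of the midpoints of the 217 sense intronic transcripts with a host, in bins of 10% of the host's span from its 5′ end (horizontal axis, percent) against the number of transcripts (vertical axis). The bin nearest the 5′ end holds 39 transcripts and the bin nearest the 3′ end holds 15.

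A share of the transcripts ended where the genome continues in a run of adenines. In 27 of 253 (10.7%) at least 12 of the 20 genomic bases after the annotated 3′ end were A. The share was 2.90% of all listed transcripts, 5.74% of lincRNAs, 2.54% of protein-coding transcripts and 19.0% of TEC transcripts. Of the 27 sense intronic transcripts, 22 had 2 exons. Only 2 of the 27 held AATAAA or ATTAAA, the hexamers that direct cleavage and polyadenylation, in their last 50 bases, against 116 of the 242 (47.9%) and 40.5% of the 25010. In 10 of the 27 the last 50 bases held CAGCCTGGG, a stretch of Alu repeats chosen after these sequences were seen, which stood in the last 50 bases of 12 of the 242 transcripts (4.96%) and of 0.696% of the 25010. The junctions of 2 of the 27 are printed, neither of which holds CAGCCTGGG in its last 50 bases. The last 50 bases of the transcript are in lower case and the next 20 genomic bases in capitals, on the transcript's strand. They lie in ZMYND8 (AL031666.3) and AKT2 (AC118344.1), and end at chr20:45976881 and chr19:40779396 on the minus strand.
AL031666.3: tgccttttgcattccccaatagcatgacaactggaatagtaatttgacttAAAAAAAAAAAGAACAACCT
AC118344.1: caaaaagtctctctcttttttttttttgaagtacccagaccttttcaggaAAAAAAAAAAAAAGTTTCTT
Whether reverse transcription primed at such runs contributed to the annotated ends or to the levels was not tested; the 27 had a median level of 0.836 FPKM and the other transcripts 0.787 FPKM.

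Most sense intronic transcripts were measured at low levels and 1 of them at a very high level. The median over transcripts was 0.748 and 0.848 FPKM in shCtrl replicates 1 and 2, and 0.731 and 0.949 FPKM in shKIAA1429 replicates 1 and 2. The mean over the 4 libraries was under 1 FPKM for 157 transcripts, from 1 to 2 for 69, from 2 to 5 for 20 and at least 5 for 7. The lowest mean was 0.361 FPKM. Since the files list only transcripts that reached about 0.504 FPKM in some library, lower ones were not analysed here. Only 54 transcripts reached 1 FPKM in every library, and 4 were listed at 0 in at least 1 library. All 253 together took 0.230%, 0.234%, 0.229% and 0.236% of the summed FPKM of the 4 libraries in the same order.

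AC006064.5, the transcript within SCARNA10, measured 576 and 568 FPKM in shCtrl and 632 and 565 FPKM in shKIAA1429. The groups overlapped, since shKIAA1429 replicate 1 was the highest library and shKIAA1429 replicate 2 the lowest. Its log2 fold change was 0.06 with a standard error of 0.09. The transcript carried 62.8% to 70.8% of the summed FPKM of the 253 in each library, and the next highest value in any library was 11.5 FPKM. The files list a transcript of 248 bases, so its FPKM is set by that length, and reads from the whole of SCARNA10 could not be told from those of the annotated fragment. Its host NCAPD2 summed to 71.5 and 95.2 FPKM in shCtrl and to 65.3 and 93.8 FPKM in shKIAA1429. The intronic RNA thus stood at 806% and 597% of its host in shCtrl and at 969% and 602% in shKIAA1429.

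The 5 transcripts next in level lay in introns of KLC1, THBS1 and CTSB or, in 1 case, in no annotated coding gene. AL049840.3, in intron 13 of 14 of the kinesin light chain gene KLC1, measured 9.78 and 11.4 FPKM in shCtrl and 6.20 and 9.01 FPKM in shKIAA1429. The groups did not overlap, and 491 of its 611 bases also lay in exons of the opposite strand. AL049840.4 in the same intron measured 7.27 and 8.36 FPKM in shCtrl and 6.18 and 7.43 FPKM in shKIAA1429, which overlapped. AC037198.2, in intron 7 of 21 of THBS1, which encodes the secreted matrix protein thrombospondin, measured 6.51 and 9.63 FPKM in shCtrl and 6.83 and 11.5 FPKM in shKIAA1429. Here both replicates 2 exceeded both replicates 1. AC025857.2, in intron 10 of 11 of the cathepsin B gene CTSB, measured 10.1 and 7.84 FPKM in shCtrl and 7.17 and 7.48 FPKM in shKIAA1429. It did not overlap between the groups. All of its 238 bases lay in exons of other sense-strand transcripts not typed as protein-coding, which may include transcripts of CTSB itself. AC124067.2, on chromosome 8 and within no annotated coding gene of its strand, measured 4.87 and 7.08 FPKM in shCtrl and 9.18 and 10.97 FPKM in shKIAA1429, also without overlap.

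The values of the other 6 of the 12 transcripts with the highest level follow. AC131009.3 in PUS1 measured 6.01 and 6.92 FPKM in shCtrl and 5.89 and 9.22 FPKM in shKIAA1429. AC092123.2, in intron 3 of 16 of the mitochondrial protease gene SPG7, measured 3.62 and 5.22 FPKM in shCtrl and 3.72 and 5.91 FPKM in shKIAA1429. AC107308.1, in intron 2 of 4 of HMGA2, which encodes a chromatin architectural factor, measured 1.90 and 4.04 FPKM in shCtrl and 1.57 and 5.19 FPKM in shKIAA1429. In AC131009.3, AC092123.2 and AC107308.1 both replicates 2 were above both replicates 1, an order that was not counted over all listed transcripts. AC104695.3 in FOSL2 measured 4.72 and 5.10 FPKM in shCtrl and 4.24 and 4.51 FPKM in shKIAA1429, without overlap but with a log2 fold change of -0.14 against a standard error of 0.18. AL031666.3, in intron 1 of 21 of the chromatin reader gene ZMYND8, measured 3.34 and 2.62 FPKM in shCtrl and 2.66 and 3.94 FPKM in shKIAA1429. AC092718.4, in the last intron of the centromere gene CENPN, measured 2.62 and 4.06 FPKM in shCtrl and 3.05 and 2.76 FPKM in shKIAA1429, and its 716 bases all lay in annotated exons of other coding transcripts.

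**Figure D2:**
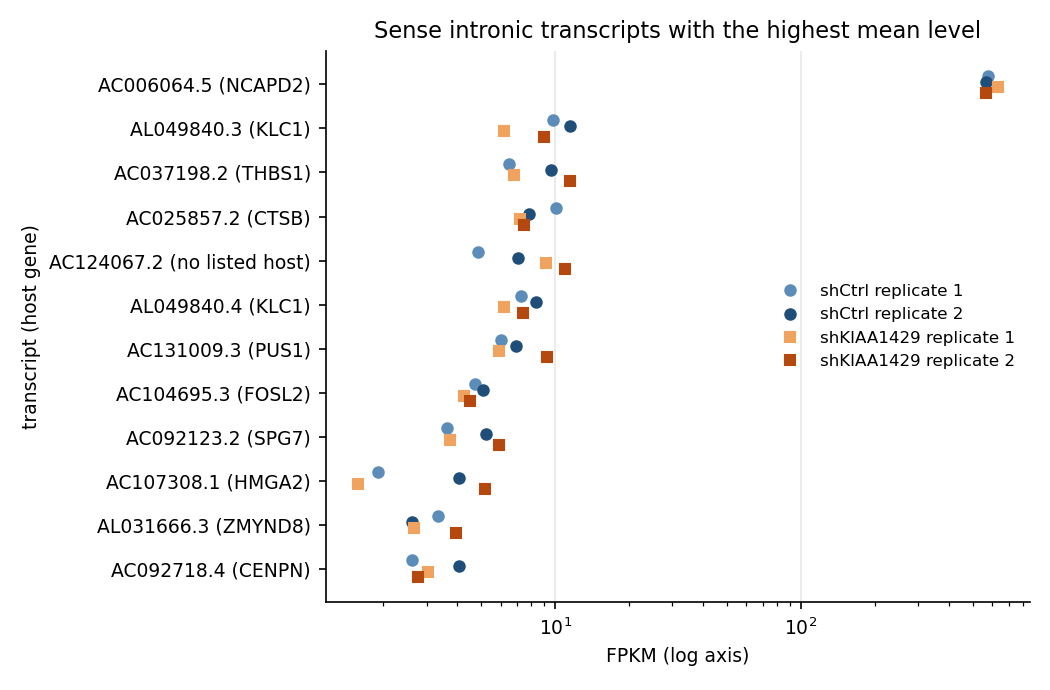
FPKM (horizontal log axis) of the 12 sense intronic transcripts with the highest mean level (vertical axis, host gene in brackets), with 1 point per library, circles for shCtrl and squares for shKIAA1429, and darker points for replicate 2. AC006064.5 sits above 560 FPKM in all 4 libraries, while the others lie between 1.57 and 11.5 FPKM.

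The comparison of shKIAA1429 with shCtrl asked whether these transcripts differed where a hairpin targeted an m6A writer subunit. The RNA of that subunit, VIRMA, was lower in both shKIAA1429 libraries but was not called. It was fitted with limma over all transcripts with at least 1 FPKM in at least 2 libraries, on log2(FPKM + 1), a scale that understates the change of low transcripts. Of the 253, 103 passed this filter and 150 did not; the means of the latter ranged from 0.361 to 1.06 FPKM. None of the 103 passed an adjusted p of 0.05 with an absolute log2 fold change over 1, and neither did any of the 24996 transcripts tested, so the background of calls was 0%. The smallest adjusted p was 0.608 among the sense intronic transcripts and 0.111 among all transcripts. An unadjusted p under 0.05 was reached by 1 of the 103 (0.971%), beside 6.28% of all transcripts tested, and without the filter by 1 of the 253, beside 5.82% of all 38510. On this scale none of the 103 exceeded an absolute log2 fold change of 1, which 7.23% of all transcripts tested did. With a pseudocount of 0.1 in place of 1, AC051619.8 exceeded it. The fold changes of the 103 had a median of 0.05 and quartiles of -0.15 and 0.14, and those of all transcripts tested had a median of -0.01 and quartiles of -0.21 and 0.20. The median of the 103 was -0.09 without shKIAA1429 replicate 2 and -0.02 without shCtrl replicate 1.

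The groups did not overlap in 74 of the 253 transcripts, in shares below those of all listed transcripts. Both shKIAA1429 libraries were above both shCtrl libraries in 42 (16.6%), against 18.5% of all 38510 listed transcripts. Both were below in 32 (12.6%), against 16.6% of all. Of the transcripts not tested, 29 were in the higher set and 17 in the lower set.

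AC051619.8, which contains the histidine tRNA gene, had the largest log2 fold change in size among the 103. It measured 3.12 and 4.11 FPKM in shCtrl and 1.71 and 1.06 FPKM in shKIAA1429, with both shKIAA1429 libraries below both shCtrl libraries. The log2 fold change was -0.96 with a standard error of 0.26 (limma, unadjusted p = 0.0232, adjusted p = 0.608). It was the transcript with an unadjusted p under 0.05. With a pseudocount of 0.1 its log2 fold change was -1.35. As single libraries were left out, its log2 fold change ranged from -1.16 to -0.76. AC051619.7, a neighbor of 623 bases with the same kind of tRNA gene (TRH-GTG1-7) inside it, measured 1.39 and 0.959 FPKM in shCtrl and 1.38 and 1.15 FPKM in shKIAA1429, which overlapped. Mature tRNA copies are near identical, so reads from them could be placed at several genes, and how the deposited values treated such reads is not stated.

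The other differences toward lower levels with no overlap were smaller. After AL049840.3 (log2 fold change -0.45, standard error 0.24), AC135050.6 in intron 4 of 11 of KAT8, a histone acetyltransferase gene, measured 2.69 and 3.56 FPKM in shCtrl and 1.68 and 2.43 FPKM in shKIAA1429 (log2 fold change -0.44, standard error 0.25). A 2-exon transcript of AC135050.6 that overlaps it measured 2.09 and 2.52 FPKM in shCtrl and 2.25 and 2.43 FPKM in shKIAA1429, which overlapped. AC004918.3, in the last intron of KIAA1147, measured 1.45 and 1.28 FPKM in shCtrl and 0.696 and 0.820 FPKM in shKIAA1429. It passed the filter only through its shCtrl libraries, which favored its being named as a fall. KIAA1147 itself stayed between 3.42 and 3.54 FPKM in all 4 libraries. AC067852.6, in the proton pump subunit gene ATP6V0A1, measured 1.42 and 1.31 FPKM in shCtrl and 0.634 and 1.22 FPKM in shKIAA1429. AC006504.8, which lay in no annotated coding gene, measured 1.45 and 1.86 FPKM in shCtrl and 1.44 and 1.00 FPKM in shKIAA1429. The adjusted p of these transcripts ranged from 0.912 to 0.976 (limma).

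Toward higher levels, AC124067.2 had a log2 fold change of 0.68 with a standard error of 0.25 (limma, adjusted p = 0.804). AC104393.1 in intron 2 of 2 of SFRP1, which encodes a secreted Wnt antagonist, measured 1.81 and 1.39 FPKM in shCtrl and 2.53 and 2.37 FPKM in shKIAA1429. Its host SFRP1 measured 135 and 123 FPKM in shCtrl and 116 and 111 FPKM in shKIAA1429, so the intronic transcript and its host lay on opposite sides. AC008982.2 in HNRNPL, which encodes a splicing regulator, measured 0.920 and 1.63 FPKM in shCtrl and 1.68 and 2.1 FPKM in shKIAA1429. AC118344.1, in intron 1 of 13 of the kinase gene AKT2, measured 0.783 and 0.975 FPKM in shCtrl and 1.31 and 1.5 FPKM in shKIAA1429. It passed the filter only through its shKIAA1429 libraries, which favored its being named as a rise. ANKRD10-IT1 measured 1.33 and 2.1 FPKM in shCtrl and 2.37 and 2.50 FPKM in shKIAA1429, and AL359091.4 in CERCAM measured 0.915 and 1.3 FPKM in shCtrl and 1.68 and 1.53 FPKM in shKIAA1429. None of these 6 overlapped between groups, and their log2 fold changes ranged from 0.31 to 0.68. With a pseudocount of 0.1 in place of 1, AC118344.1 went from 0.36 to 0.62, AC008982.2 from 0.36 to 0.58 and AL359091.4 from 0.31 to 0.52. AC118344.1 ends at the adenine run printed above.

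The host genes were next compared with their intronic transcripts. Hosts had a median mean level of 12.7 FPKM, against 7.53 FPKM for the 11665 coding genes listed. The median sense intronic transcript stood at 6.54% of its host, with quartiles of 3.12% and 12.9%, and 150 of 217 stood under 10%. Only transcripts that reached about 0.504 FPKM in some library were listed, so lower ratios are missing. How far this floor shaped the ratios, the host levels and the correlation below was not tested. Other noncoding transcripts inside a coding gene on the same strand stood at a median of 6.67% of that gene (5721 transcripts). The lowest sense intronic transcript was RHOA-IT1 at 0.252% of RHOA, a small GTPase gene with 231 to 261 FPKM. Across the 217 the Pearson correlation of log2 levels of transcript and host was 0.34 (Spearman 0.26). It is given as a description, since the transcripts share libraries and 49 of them share a host with another.

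Only AC006064.5 and AC026271.4 exceeded their hosts in mean level. AC026271.4 measured 1.79 and 1.43 FPKM in shCtrl and 2.11 and 1.42 FPKM in shKIAA1429, beside 0.900 and 1.39 FPKM and 1.22 and 0.629 FPKM for ZNF286B. All of its 1833 bases lay in exons of annotated coding transcripts, within the gene FOXO3B. AL136295.7 stood at 89.5% of AL136295.1, a host listed at 0 in shCtrl replicate 2 and shKIAA1429 replicate 1. AC027796.1 in TRPV1, the capsaicin receptor gene, stood at 82.4%, FAM155A-IT1 in FAM155A, a gene for a sodium leak channel subunit, at 70.2%, and AC087481.3 in FAN1, a DNA repair nuclease gene, at 69.6%. These hosts were themselves low, at no more than 2.96 FPKM in any library.

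**Figure D3:**
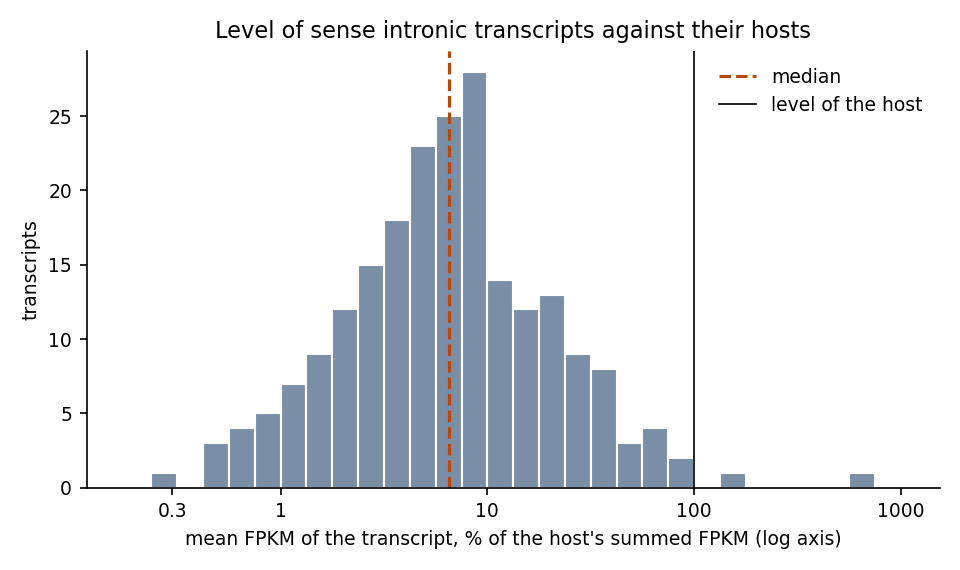
Histogram of the mean FPKM of each of the 217 sense intronic transcripts as a percentage of the summed FPKM of its host (horizontal log axis) against the number of transcripts (vertical axis). The dashed line marks the median of 6.54%, and 2 transcripts lie above the solid line at 100%.

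No host was called by the same test. None of the 187 hosts tested was called, and none of the 11553 genes was (a background of 0%; smallest adjusted p of 0.474 among hosts, limma). An unadjusted p under 0.05 was reached by 8 hosts (4.28%), beside 5.67% of all genes, and their median log2 fold change was 0.01, beside -0.01 for all genes. PRR5L alone had a host log2 fold change over 1 in size, at 16.1 and 20.8 FPKM in shCtrl and 5.61 and 10.7 FPKM in shKIAA1429, and was named for that after its values were seen. Its intronic transcript AC087277.2 measured 0.465 and 0.594 FPKM in shCtrl and 0.686 and 0.685 FPKM in shKIAA1429. Of the other hosts with an unadjusted p under 0.05, FOXK2 had a log2 fold change of -0.65 beside -0.24 for its intronic transcript AC124283.3, ARHGAP22 had 0.80 beside 0.40 for ARHGAP22-IT1, and CERCAM had 0.60 beside 0.31 for AL359091.4. In INTS11 and CD44 the hosts had 0.89 and 0.31 beside 0.11 for AL139287.1 and 0.09 for AL133330.1. In CORO6 and BLCAP the hosts had 0.58 and 0.35 beside -0.13 for AC104564.3 and -0.0051 for AL109614.1. AC104564.3 thus had the opposite sign to its host, and AL109614.1 hardly differed between groups. Across the 217 pairs the fold changes of transcript and host had a Pearson correlation of 0.18, and 122 pairs (56.2%) had the same sign.

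The level of the intronic transcript relative to its host was then compared between the groups. The difference of log2(FPKM + 1) between transcript and host had a median of -2.94 and -2.84 in shCtrl and of -2.96 and -2.74 in shKIAA1429, so the groups overlapped. Per transcript the change of this difference had a median of 0.02, with quartiles of -0.17 and 0.18, and the other noncoding transcripts inside coding genes had a median of 0.01. It was higher in both shKIAA1429 libraries for 32 of 217 (14.7%) and lower in both for 26 (11.98%), against 17.9% and 16.3% of the other noncoding transcripts. With 2 libraries per group the two-sided exact permutation test of each difference cannot give a p below 0.333. The difference changed by over 1 in size only for AC087277.2 in PRR5L (1.28) and AC009032.1 in NFAT5 (1.07), and in NFAT5 the groups overlapped. In PRR5L most of this change was the lower level of the host, since the transcript itself rose by less on this scale. The scale understates the change of low transcripts, so the difference follows the host more than the transcript where the transcript is low.

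**Figure D4:**
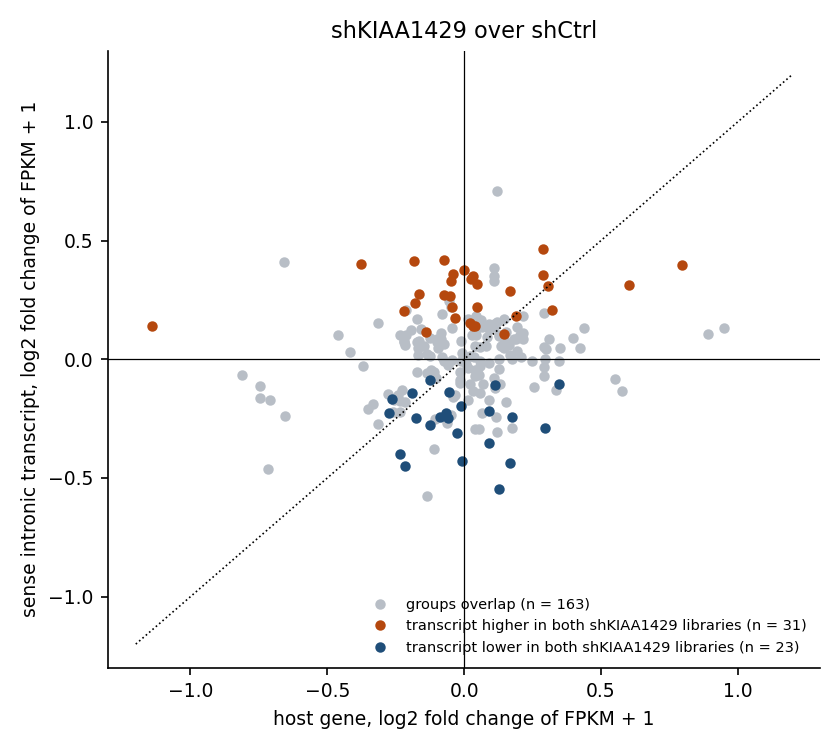
Log2 fold change of FPKM + 1, shKIAA1429 over shCtrl, of the host gene (horizontal axis) and of its sense intronic transcript (vertical axis) for the 217 pairs, with 1 point per transcript and the dotted line at equal change. The groups overlapped for 163 transcripts (grey), 31 were higher (red) and 23 lower (blue) in both shKIAA1429 libraries, and the points scatter around 0 with a Pearson correlation of 0.18.

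In this class replicate 2 stood above replicate 1 in both groups. Replicate 2 exceeded replicate 1 in 158 of the 253 transcripts (62.5%) in shCtrl and in 183 (72.3%) in shKIAA1429, against 51.6% and 52.3% of all listed transcripts. The median log2 difference of replicate 2 from replicate 1 was 0.08 in shCtrl and 0.18 in shKIAA1429. Within replicate 1 the median log2 difference of shKIAA1429 from shCtrl was -0.02, with 118 transcripts higher, and within replicate 2 it was 0.09, with 158 higher. The TEC class moved likewise (62.8% and 70.1% higher in replicate 2), whereas lincRNAs did not (43.1% and 48.7%). The hosts summed per gene were higher in replicate 2 for 47.9% in shCtrl and 59.6% in shKIAA1429. Single-exon members (60.9% and 67.2%) and spliced members (64.0% and 76.3%) were alike in direction, as were members in intron 1 (58.5% and 78.0%) and in later introns (69.2% and 74.6%). At like levels, a mean of 0.5 to 2 FPKM, the spread between replicates was no wider than for coding transcripts. The median absolute log2 difference between replicates was 0.19 in shCtrl and 0.28 in shKIAA1429 for 198 sense intronic transcripts. It was 0.26 and 0.29 for 13597 coding transcripts and 0.22 and 0.23 for 626 lincRNAs. In shKIAA1429 the sense intronic spread was thus wider than that of lincRNAs. Whether replicate 2 libraries held more pre-mRNA was not tested, and no label says what the replicate numbers share.

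**Figure D5:**
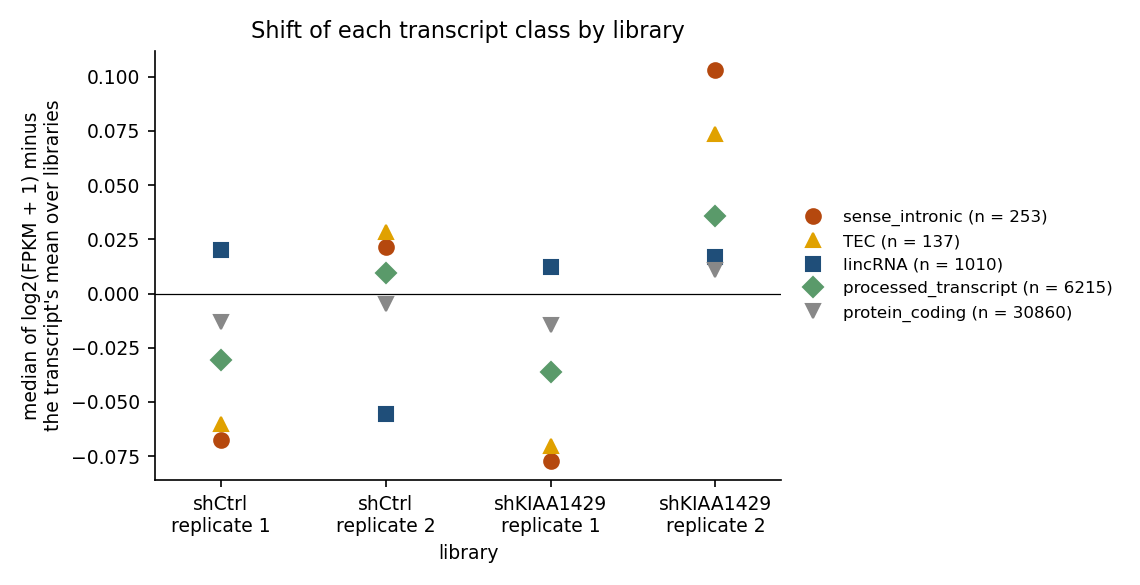
Median over transcripts of log2(FPKM + 1) in a library minus the transcript's mean over the 4 libraries (vertical axis), for 5 transcript classes (symbols) in each library (horizontal axis). Sense intronic transcripts lie at -0.07 and -0.08 in both replicates 1 and at 0.02 and 0.10 in both replicates 2, and protein-coding transcripts lie within 0.02 of 0.

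Several hosts held more than 1 member. CCDC92 held 6, all within intron 1 of 3 of a host with 6.34 to 8.47 FPKM. Their means ranged from 0.521 to 1.14 FPKM, or 7.37% to 16.1% of the host, and the groups overlapped in all 6. KLC1, KAT8, BIRC6, ST7 and MYO1D held 3 each. In MYO1D, which encodes an unconventional myosin, the 3 members lay in the last intron and stood at 0.678% to 1.02% of the host, in BIRC6, an apoptosis inhibitor gene, at 2.76% to 11.9%, and in KLC1 at 5.99% to 24.3%. In KLC1 the host measured 37.4 and 43.4 FPKM in shCtrl and 31.9 and 37.3 FPKM in shKIAA1429. The third member in KLC1, AL049840.5, measured 2.01 and 2.36 FPKM in shCtrl and 2.19 and 2.44 FPKM in shKIAA1429, which overlapped.

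Overlapping members can divide the same reads. AP000866.6 in MSANTD2 had a listed transcript of 3579 bases that measured 1.18 and 0 FPKM in shCtrl and 0.977 and 0 FPKM in shKIAA1429. Its other listed transcript, of 826 bases, measured 0.0412 and 0.961 FPKM in shCtrl and 0.116 and 0.969 FPKM in shKIAA1429. The 2 transcripts thus exchanged levels between replicates 1 and 2 in both groups.

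Besides SCARNA10 and the tRNA genes, 5 members overlapped an annotated small RNA gene or pseudogene within their genomic span, own introns included. AC103702.1 in intron 1 of the host transcript of HOXB3, which contains the microRNA gene MIR10A, measured 2.51 and 2.23 FPKM in shCtrl and 2.14 and 2.66 FPKM in shKIAA1429. AL365436.2 in TUFT1 overlaps MIR554 by its span, while no RefSeq small RNA gene was found in its exons. It measured 2.75 and 2.57 FPKM in shCtrl and 1.64 and 3.004 FPKM in shKIAA1429. AC124312.4, which overlaps the small nucleolar RNA gene SNORD64, measured 0.985 and 0.515 FPKM in shCtrl and 0.453 and 0.357 FPKM in shKIAA1429 without overlap. AC011479.2 in SIPA1L3 overlaps the 7SL pseudogene RN7SL663P and AC022211.1 in JPT1 a Y RNA on the opposite strand, and their groups overlapped. All 5 stayed at or under 3.004 FPKM in every library.

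The genes of nuclear RNA surveillance and intron turnover were examined as a list, since they act on RNAs of this kind. All 28 were tested (exosome subunits, its cofactors, cap-binding proteins, XRN2 and DBR1) and none was called in either direction (limma, smallest adjusted p = 0.932; 0 with an unadjusted p under 0.05). Their median log2 fold change was -0.07, from -0.37 to 0.38, with 20 lower and 8 higher by sign, beside a median of -0.01 for all genes. DIS3, the processive nuclease of the exosome, measured 2.30 and 4.62 FPKM in shCtrl and 3.50 and 4.01 FPKM in shKIAA1429. EXOSC10, its nuclear nuclease, measured 25.4 and 26.6 FPKM in shCtrl and 23.8 and 30.0 FPKM in shKIAA1429. MTREX, the helicase that feeds the exosome, measured 9.19 and 10.1 FPKM in shCtrl and 7.76 and 10.4 FPKM in shKIAA1429, and DBR1 measured 3.14 and 4.31 FPKM in shCtrl and 2.97 and 3.92 FPKM in shKIAA1429. The groups overlapped in all 4 of these genes.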

How the data were processed

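RNA of 4 HCCLM3 libraries was compared, 2 shCtrl and 2 shKIAA1429, grouped by sample title. By their methods, the authors sequenced paired reads with an NEBNext Ultra kit, aligned them with TopHat and tested gene counts with HTSeq and DESeq. What the authors deposited and was used here is FPKM per GENCODE transcript on GRCh37 (hg19), and the submitters' processing notes name Bowtie2 2.1.0. The quantification tool and its rules on strand and multiple mapping are not given in the sources used here, and depth is unknown. FPKM scales with the other RNAs in a library and divides reads between overlapping transcripts.

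Here transcripts with at least 1 FPKM in at least 2 libraries were compared on log2(FPKM + 1) in R 4.3.3 by a two-sided limma 3.58.1 test (a trended eBayes fit of all 4 libraries with group as its term), and p-values were Benjamini-Hochberg adjusted across every transcript tested. Hosts and listed genes were tested likewise on FPKM summed per gene, sense intronic rows left out. Exons, introns and sequences came from GENCODE 44 lifted to GRCh37, and a transcript's own exons were used only where its ends there equal those listed, and small RNA genes also from RefSeq, matched by GRCh38 positions in both. Named were the 12 transcripts with the highest mean, the 6 largest differences in each direction without overlap among those tested, and the 6 highest ratios to a host. RNA surveillance genes were named at an unadjusted p under 0.05, and DIS3, EXOSC10, MTREX and DBR1 in any case. The members and lists were chosen with earlier results of these data known. Alternatives were no filter, 1 FPKM in every library, a pseudocount of 0.1, upper quartile scaling, a replicate block, omission of each library, either threshold alone and 2 other host definitions, and, chosen after seeing the data, sums per gene, a robust variance and sums without AC006064.5. Some sequences and genes are not reported here. Python 3.11.15 and matplotlib 3.10.9 were used.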

Additional observations from a re-analysis of the deposited data

How the results depend on the processing

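With both thresholds, limma called none of the sense intronic transcripts, hosts or RNA surveillance genes under another filter, pseudocount, scaling or variance, with the replicate block or without any 1 library. For the sense intronic transcripts alone, either threshold by itself and sums per gene, all with a pseudocount of 1, also gave 0. In the sums 104 genes were tested, and 3 (2.88%) had an unadjusted p under 0.05 (limma), beside 5.63% of all genes in that table. The median log2 fold change of the sense intronic transcripts tested ranged from -0.090 to 0.10 as single libraries were left out and that of the transcript relative to its host from -0.05 to 0.10, so neither direction was stable; elsewhere they lay between 0.05 and 0.06 and between 0.01 and 0.02. Hosts with an unadjusted p under 0.05 numbered 8, and 19 without shKIAA1429 replicate 2, 13 without shCtrl replicate 1 and 13 with the replicate block. The replicate block left the median at 0.05 and gave 2 sense intronic transcripts with an unadjusted p under 0.05. Same-numbered libraries deviated together little over all transcripts tested (r = 0.06) and more over the sense intronic ones (r = 0.28), and with 2 pairs the numbers were not taken as a pairing. VIRMA had a log2 fold change of -0.80 when shCtrl replicate 1 was left out and of -0.26 when replicate 2 was.

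Of the 27 transcripts named by rule, 16 kept their direction whichever library was left out and 11 did not, and none changed direction under the other settings. The ranges of the 11 were -0.017 to 0.14 for AC006064.5, -0.19 to 0.49 for AC037198.2, -0.11 to 0.46 for AC131009.3, -0.18 to 0.37 for AC092123.2, -0.57 to 0.69 for AC107308.1, -0.11 to 0.32 for AL031666.3, -0.37 to 0.11 for AC092718.4, -0.17 to 0.26 for AC087481.3, -0.10 to 0.26 for AC026271.4, -0.15 to 0.25 for AL136295.7 and -0.015 to 0.22 for AC027796.1. Of the 16, 12 moved by over 1.5 times, among them AL049840.3 (-0.69 to -0.21), AC135050.6 (-0.62 to -0.26), AC067852.6 (-0.53 to -0.090), AC104695.3 (-0.18 to -0.089), AC124067.2 (0.45 to 0.91), ANKRD10-IT1 (0.15 to 0.56) and AC008982.2 (0.13 to 0.59). A pseudocount of 0.1 moved 9 of the 27 by over 1.5 times, with AC004918.3 going from -0.43 to -0.78 and AC067852.6 from -0.31 to -0.57. The cause was not tested. A lone library was assumed to vary like the other group. Unknown depth limits what can be said of values near the listing floor of 0.504 FPKM.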

Other observations

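The values of 2 further sense intronic transcripts follow, chosen after they were seen. AC008115.3, in intron 2 of the host transcript of CDKN1B, a cell cycle inhibitor gene, measured 2.38 and 1.84 FPKM in shCtrl and 1.59 and 1.62 FPKM in shKIAA1429, so the groups did not overlap (log2 fold change -0.25 without a call). ENO1-IT1 in the enolase gene ENO1 measured 2.04 and 2.35 FPKM in shCtrl and 1.64 and 2.07 FPKM in shKIAA1429, which overlapped, and 279 of its 744 bases lay in exons of annotated coding transcripts. GENCODE 44 gives it a protein-coding gene type. Over the same libraries the summed FPKM of ENO1 was 731 in shCtrl replicate 1 and between 232 and 251 in the other 3 libraries.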
